A study of Mus musculus with 6 samples.

Results

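The genes described here are 10 components of inflammasomes and of the necroptosis pathway, namely the sensors Nlrp3 and Zbp1, the adaptor Pycard, the caspases Casp1, Casp4 and Casp8, the kinases Ripk1 and Ripk3, and the membrane effectors Gsdmd and Mlkl. They were taken by gene symbol from count tables that list 24422 genes, and all 10 were listed and passed the filter on low counts. RNA sequencing was performed on whole kidneys of C57BL/6 mice at postnatal day 60, all on a diet with 220 ppm iron. The 3 control mice are labelled wild type, and the 3 TfR1KO;KspCre mice are labelled Tfr1f/f;KspCre and are called knockouts below. In the knockouts both alleles of the transferrin receptor gene Tfrc (TfR1) are floxed around exons 3 and 4, and the Cre comes from the Ksp-cadherin promoter, which is active in the distal nephron, so that the deletion is aimed at a fraction of the cells that were sequenced. The groups therefore differ in the floxed alleles and the Cre transgene together. Since the whole organ was sequenced, a higher value of a transcript can come from more cells that carry it or from more RNA per cell, and these cannot be told apart.

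Inflammasomes are complexes in which a sensor such as NLRP3 recruits the adaptor ASC (encoded by Pycard) and thereby activates caspase-1. Caspase-1 matures interleukin-1β and interleukin-18 and cleaves gasdermin D, whose N-terminal part forms pores and ends in pyroptosis, whereas the non-canonical route reaches gasdermin D through caspase-11, the product of Casp4 in the mouse. Necroptosis runs from RIPK1 or ZBP1 through RIPK3 to the pseudokinase MLKL, which breaches the plasma membrane, and caspase-8 restrains it by cleaving the kinases. Both pathways have been studied in injured kidney, where macrophages as well as tubule cells can carry their components.

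Libraries held between 11501053 and 21001341 counts, and the smallest was knockout 3. Levels are given as CPM, counts per 1000000 counts of a library after scaling by the TMM method. A principal component with 69.4% of the variance of log2 CPM placed knockout 1 (9.67) between the controls (at most -53.2) and the other knockouts (at least 82.1). In sex-linked transcripts control 2 stood apart, with 52 counts of Xist and 3980 summed over 4 Y-linked genes, where the other libraries held at least 10458 and at most 5. Sex is not in the labels. Counts of ribosomal RNA (Rn45s) made up 2.59% of knockout 3 and at most 0.745% of each other library. Tfrc did not separate the groups, with 2783, 2856 and 1032 counts in controls and 4368, 1713 and 530 in knockouts (edgeR, adjusted p 0.911), so that it gave no check of the labels. Kidney markers were present throughout. The summed level of Lrp2, Cubn, Slc34a1 and Slc5a2 of the proximal tubule was between 7461 and 10207 CPM in controls and between 1147 and 3494 in knockouts, and all 4 fell. Without any 1 control, without knockout 2 or 3, or with the replicate number as a block, edgeR called 0 of these 4. Nearly all calls of the table were lost in those fits. In edgeR's newer quasi-likelihood version 3 of the 4 were called. Sums for the thick ascending limb (3460 to 8879 CPM in controls, 667.1 to 5665 in knockouts), for the distal convoluted tubule and collecting duct (1698 to 2287 and 157.5 to 2377) and for podocytes (436 to 542.6 and 450.1 to 753.7) overlapped between the groups, and 0 of their 8 markers were called by edgeR, DESeq2 or limma-voom, or had an unadjusted p under 0.05 in edgeR, with all libraries. Without knockout 1, edgeR called both thick ascending limb markers, Umod and Slc12a1, lower.

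Of the 10 genes, 7 rose in knockouts and 0 fell when tested by edgeR (quasi-likelihood test, threshold 0.05 on p-values adjusted by Benjamini-Hochberg over all 15171 genes tested), and 10.6% of all genes tested rose. The 7 were Casp4, Casp1, Zbp1, Ripk3, Gsdmd, Mlkl and Pycard, and their log2 fold changes ran from 1.00 to 2.98. Nlrp3 narrowly missed the threshold, with an adjusted p of 0.0501 (edgeR), and the entry points shared with apoptosis, Casp8 and Ripk1, were at 1.20-fold and 1.14-fold and did not pass. A gene is called where it passed this threshold. The median log2 fold change of the 10 genes was 1.84, and that of all genes tested was 0.02. At an unadjusted p under 0.05, 8 of the 10 were higher in knockouts, against 21% of all genes tested. All 3 knockouts lay above all 3 controls for the same 8, as for 23.8% of all genes tested. Among the knockouts, knockout 2 was the highest for 9 of the 10 genes and knockout 1 the lowest for 9. This order was not counted over all genes. On the principal component above, knockout 1 (9.67) was likewise nearest the controls and knockout 2 (88.6) the farthest, with knockout 3 at 82.1.

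**Figure D1:**
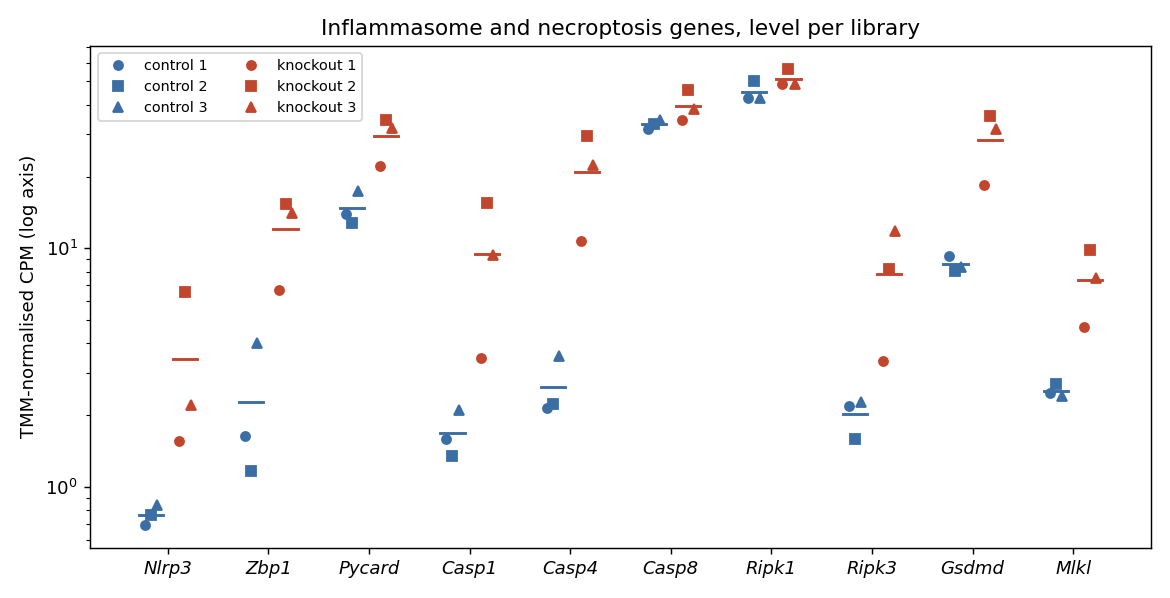
TMM-normalised CPM (log axis) of the 10 genes in each library, with controls in blue and knockouts in red, 1 symbol per replicate number and a line at the mean of 3 libraries. All knockouts lie above all controls for 8 genes, whereas the groups overlap for Casp8 and Ripk1, and knockout 1 is the nearest to the controls for 9 genes.

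The calls depended on single libraries. Without control 1, 2 or 3, or without knockout 2 or 3, 0 of the 10 genes were called by edgeR, and in each of these 5 fits 8 still had an unadjusted p under 0.05. The loss covered nearly all calls of the table: 0 genes were called without any 1 control, 73 without knockout 2 and 2 without knockout 3. Genes higher at an unadjusted p under 0.05 were 2599 of 15518, 2337 of 15565 and 2690 of 15624 without controls 1, 2 and 3. They were 2726 of 15408 without knockout 2 and 2671 of 15439 without knockout 3. The adjusted p of the 7 genes was then between 0.0805 and 0.103 without control 1, between 0.118 and 0.138 without control 2, between 0.0927 and 0.110 without control 3, between 0.0566 and 0.102 without knockout 2 and between 0.0565 and 0.102 without knockout 3. Without knockout 1, 8 of the 10 were called, Nlrp3 being the eighth, and 18% of all genes tested were called higher. DESeq2's Wald test on all libraries called the same 8, where it called 17.2% of all genes higher. All 10 fold changes stayed above 0 in every one of these fits.

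**Figure D2:**
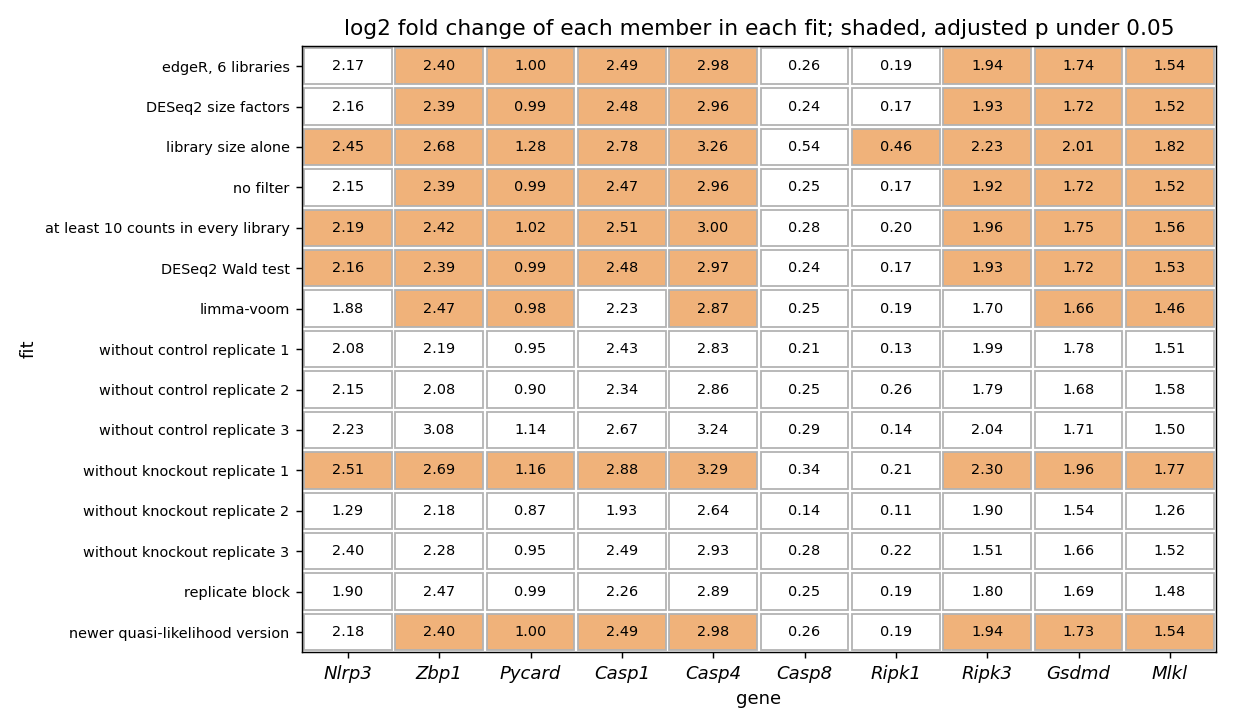
Log2 fold change of each member (columns) in each fit (rows), with shading where the adjusted p was under 0.05. All values are above 0, and shading is absent without any 1 control, without knockout 2, without knockout 3 and with the replicate number as a block, which gave 0 calls of the 10.

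Promoter sequences were then searched for short motifs, as a description. RefSeq windows from 250 bases before to 50 after a transcript start (build GRCm38.p6) were given for 8 of the 10 genes, in 11 windows, and not for Gsdmd and Zbp1. Each window was searched on both strands for GAAANNGAA (the core of an interferon-stimulated response element), GGNNTTTCC (part of a kappa-B site) and GAGGAAGT (a site of the myeloid factor PU.1). The 4 windows below are shown because they hold such letters, for the gene with the largest rise (Casp4), for Nlrp3, and for the partner kinases Ripk3, which rose, and Ripk1, which was not called. Capitals mark the matches.
Casp4 (chr9:5308599-5308898, plus strand): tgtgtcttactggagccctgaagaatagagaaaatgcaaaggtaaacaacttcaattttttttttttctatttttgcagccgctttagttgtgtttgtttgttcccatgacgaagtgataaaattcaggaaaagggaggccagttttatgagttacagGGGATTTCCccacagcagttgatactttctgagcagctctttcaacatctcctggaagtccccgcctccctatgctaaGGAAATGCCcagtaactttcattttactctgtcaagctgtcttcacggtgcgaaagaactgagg
Nlrp3 (chr11:59542436-59542735, plus strand): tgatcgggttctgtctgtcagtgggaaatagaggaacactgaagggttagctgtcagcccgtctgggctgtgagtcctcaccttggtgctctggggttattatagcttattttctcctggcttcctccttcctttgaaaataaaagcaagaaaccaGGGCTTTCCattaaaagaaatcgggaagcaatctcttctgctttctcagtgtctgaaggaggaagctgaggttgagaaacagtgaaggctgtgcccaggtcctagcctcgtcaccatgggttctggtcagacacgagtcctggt
Ripk3 (chr14:55788808-55789107, minus strand): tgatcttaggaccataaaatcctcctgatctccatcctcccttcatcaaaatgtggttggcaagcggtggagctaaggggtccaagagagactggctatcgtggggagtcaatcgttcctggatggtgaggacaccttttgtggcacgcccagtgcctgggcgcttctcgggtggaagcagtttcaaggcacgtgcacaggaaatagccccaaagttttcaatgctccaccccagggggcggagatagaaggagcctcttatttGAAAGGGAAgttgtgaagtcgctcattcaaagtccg
Ripk1 (chr13:34002624-34002923, plus strand): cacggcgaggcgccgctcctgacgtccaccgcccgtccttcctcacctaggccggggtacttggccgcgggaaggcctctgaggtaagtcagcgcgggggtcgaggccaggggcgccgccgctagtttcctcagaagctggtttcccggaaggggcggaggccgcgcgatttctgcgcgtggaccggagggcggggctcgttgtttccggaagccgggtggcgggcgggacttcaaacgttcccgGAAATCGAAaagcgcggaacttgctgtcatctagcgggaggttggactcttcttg

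GGNNTTTCC was found in 4 of the 11 windows, all of Casp4 or Nlrp3, and in 5.82% of the 32851 windows of all genes. In the window of Casp4 it lies at bases 159 to 167 and 237 to 245, counted from 1 at the 5′ end, and in that of Nlrp3 at bases 157 to 165. The 2 windows of Casp4 overlap and share both matches, so they are not separate counts. GAAANNGAA was in 2 windows, that of Ripk3 (bases 265 to 273) and 1 of the 2 of Ripk1 (bases 246 to 254), and in 8.56% of all windows. GAGGAAGT was found, as its reverse complement, in the window of Pycard and in 3.2% of all windows. Casp1, Casp8 and Mlkl held none of the 3.

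Among the sensors, Nlrp3 (ENSMUSG00000032691; mm9 chromosome 11, 59355070 to 59380458, plus strand) was the least abundant of the 10 genes. Its TMM-normalised levels were 0.697, 0.764 and 0.840 CPM in controls 1 to 3 and 1.57, 6.57 and 2.22 CPM in knockouts 1 to 3. The 3 controls were nearly alike, and knockout 2 stood well above the other two knockouts, which were themselves above every control. The log2 fold change was 2.17 (edgeR, adjusted p 0.0501; SE 0.60), a fold of 4.50 with a 95% interval of 1.68 to 12.04. Without knockout 2 the log2 fold change was 1.29. The raw counts behind it were 13 or 14 in each control.

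Zbp1 (ENSMUSG00000027514; chromosome 2, 173032113 to 173044424, minus strand) encodes a sensor of Z-form nucleic acid that is induced by interferon and binds RIPK3. It was at 1.64, 1.18 and 4.02 CPM in controls and 6.67, 15.4 and 14.1 CPM in knockouts. Control 3 was the highest control and still lay below knockout 1. Zbp1 rose 5.29-fold, a log2 fold change of 2.40 (edgeR, adjusted p 0.0362; SE 0.55), which was 3.08 without control 3. No other gene of the 10 varied as much among controls, where its highest library was 3.42 times its lowest.

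The adaptor gene Pycard (ENSMUSG00000030793; chromosome 7, 135135617 to 135137381, minus strand) was at 14.0, 12.8 and 17.5 CPM in controls and 22.2, 34.6 and 31.9 CPM in knockouts. It rose 2.01-fold (log2 fold change 1.00, SE 0.22; edgeR, adjusted p 0.0339). This was the smallest of the 7 rises, and the knockouts differed among themselves by less than for any other gene that rose, the highest being 1.56 times the lowest.

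Both inflammatory caspases rose. Casp1 (ENSMUSG00000025888; chromosome 9, 5298517 to 5307265, plus strand) encodes the protease that matures interleukin-1β and was at 1.59, 1.35 and 2.10 CPM in controls and 3.48, 15.5 and 9.42 CPM in knockouts. Knockout 1 was 1.66 times the highest control, whereas knockout 2 was 4.45 times knockout 1. Its log2 fold change was 2.49 (edgeR, adjusted p 0.0351; SE 0.56), which is 5.62-fold. Casp4 (ENSMUSG00000033538; chromosome 9, 5308828 to 5336783, plus strand), which encodes the lipopolysaccharide-binding caspase-11, was at 2.14, 2.23 and 3.54 CPM in controls and 10.7, 29.5 and 22.3 CPM in knockouts. Here the groups were the farthest apart of the 10 genes, the lowest knockout being 3.02 times the highest control. Casp4 had the largest change, with a log2 fold change of 2.98 (edgeR, adjusted p 0.0271; SE 0.43), a fold of 7.89 with a 95% interval of 3.86 to 16.1.

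Casp1 and Casp4 are neighbours on the same strand, 1562 bases apart, and the next gene is Casp12 (5345476 to 5373032, plus strand), a caspase of the endoplasmic reticulum. Casp12 was one of the companion genes and rose as well, from 2.59, 2.82 and 3.36 CPM in controls to 9.62, 38.3 and 31.0 CPM in knockouts (log2 fold change 3.17, SE 0.52; edgeR, adjusted p 0.0277). All 3 genes of this caspase cluster passed edgeR's test, each with knockout 1 lowest and knockout 2 highest among the knockouts. With limma-voom only Casp4 was called, as the adjusted p was 0.0734 for Casp1 and 0.0534 for Casp12. Among protein-coding transcripts, 100% of the 100-base words of Casp1 and of Casp4 occurred in no other gene.

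The apical members of the death-receptor branch did not pass the test. Casp8 (ENSMUSG00000026029; chromosome 1, 58852218 to 58904347, plus strand) encodes the initiator caspase that starts apoptosis and holds necroptosis in check, and was at 31.5, 33.2 and 34.6 CPM in controls and 34.5, 46.0 and 38.3 CPM in knockouts. Knockout 1 lay within the control range. Its log2 fold change was 0.26 (edgeR, adjusted p 0.233; SE 0.15), and the 95% interval of the fold ran from 0.940 to 1.52. Ripk1 (ENSMUSG00000021408; chromosome 13, 34094232 to 34127039, plus strand) encodes the kinase recruited to the tumour necrosis factor receptor, and was at 42.7, 50.1 and 42.8 CPM in controls and 49.0, 56.5 and 48.7 CPM in knockouts. Control 2 lay above knockouts 1 and 3. The log2 fold change was 0.19 (edgeR, adjusted p 0.340; SE 0.13), with an interval of the fold from 0.913 to 1.42. A rise beyond 1.52-fold lay outside both intervals. Of the exon bases of Ripk1, 34.3% are shared with a transcript annotated on the same strand (Gm17084) and 3.93% with Serpinb6a on the opposite strand, so its counts are less certain than those of the other members, none of which overlaps another gene.

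Downstream in the same branch, Ripk3 (ENSMUSG00000022221; chromosome 14, 56403833 to 56407694, minus strand) encodes the kinase that phosphorylates MLKL. It was at 2.19, 1.59 and 2.28 CPM in controls and 3.39, 8.18 and 11.9 CPM in knockouts, and was the only member that was highest in knockout 3. Ripk3 rose 3.84-fold (log2 fold change 1.94, SE 0.48; edgeR, adjusted p 0.0414). Mlkl (ENSMUSG00000012519; chromosome 8, 113835697 to 113862077, minus strand), the executioner of necroptosis, was at 2.49, 2.70 and 2.40 CPM in controls and 4.71, 9.89 and 7.51 CPM in knockouts. It rose 2.91-fold (log2 fold change 1.54, SE 0.34; edgeR, adjusted p 0.0333), and its controls lay close together, with the highest 1.13 times the lowest.

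Gsdmd (ENSMUSG00000022575; chromosome 15, 75692769 to 75697834, plus strand) encodes gasdermin D, the substrate through which both inflammatory caspases form pores. It was at 9.30, 8.05 and 8.34 CPM in controls and 18.5, 35.7 and 31.5 CPM in knockouts. The lowest knockout was 1.99 times the highest control. Gsdmd rose 3.33-fold, a log2 fold change of 1.74 (edgeR, adjusted p 0.0277; SE 0.27).

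The order of the levels was then compared per length, as CPM per kilobase of annotated exon. In controls, Casp8 (11.9 ± 0.556, SD, n = 3), Pycard (10.5 ± 1.74), Ripk1 (7.37 ± 0.695) and Gsdmd (4.82 ± 0.369) were the most abundant, and the other 6 were at or below 1.12 CPM per kilobase. The libraries of Casp8 and Pycard overlapped, and Pycard, Ripk1 and Gsdmd were separate from each other. From Casp1 down through Mlkl, Ripk3, Casp4 and Zbp1 each gene overlapped the next, and Nlrp3 (0.189 ± 0.0177) lay below them all. In knockouts the order began with Pycard (21.0 ± 4.62, SD, n = 3), Gsdmd (16.1 ± 5.04) and Casp8 (14.3 ± 2.11), whose neighbouring libraries overlapped. Ripk1 (8.37 ± 0.720) came next and was separate from Casp8. From Ripk1 down through Casp1 (6.33 ± 4.02), Casp4 (5.61 ± 2.55), Ripk3, Zbp1 and Mlkl each gene overlapped the next, and Nlrp3 (0.852 ± 0.671) was again last and separate.

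The companion lists held 57 further genes of the 2 pathways, of which 51 were tested. Of these, 13 rose and 1 fell, against 17.2% of all genes called in either direction, and the median log2 fold change of the 51 was 0.40. For the lists below, edgeR called 10.6% of all genes tested higher, 19.7% with library size alone and 18% without knockout 1. DESeq2's Wald test called 17.2% higher and limma-voom 7.33%. The calls of these genes were lost in the fits that lost nearly every call of the table. Without any 1 control, 0 companion genes and 0 of all genes were called. Without knockout 2 or knockout 3, 0 companion genes were called, and 73 and 2 of all genes.

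Of 14 tested inflammasome sensors and partners, 5 rose and 1 fell, and 8 were not called. DESeq2's Wald test and edgeR with library size alone each called 7 higher, and limma-voom called 2, without Aim2, Naip5 and Nlrp10. Panx1, a channel that releases ATP, rose from between 1.38 and 2.29 CPM in controls to between 7.71 and 14.9 CPM in knockouts (log2 fold change 2.59, SE 0.36; edgeR, adjusted p 0.0271). Aim2, a sensor of cytosolic DNA, had a log2 fold change of 2.75 (edgeR, adjusted p 0.0389; SE 0.66), which was 2.08 without knockout 2. Nlrp10 held 2, 3 and 0 counts in controls and 13, 205 and 21 in knockouts. It passed the filter on low counts only through the knockouts, where it is high, so its call is no support for the list, and it was not in the fit with at least 10 counts in every library. Its log2 fold change of 5.40 (edgeR, adjusted p 0.0419; SE 1.36) was 3.47 without knockout 2 and 6.11 without control 2. These values rest on at most 3 counts in any control. The other 2 that rose were Naip5 and the ATP receptor gene P2rx7, at log2 fold changes of 1.73 and 2.54. Nlrp6, a sensor known from gut epithelium, was the 1 gene that fell, from 122.9, 189.8 and 210.1 CPM in controls to 69.6, 26.3 and 21.8 CPM in knockouts (log2 fold change -2.15, SE 0.47; edgeR, adjusted p 0.0339), and without knockout 1 its log2 fold change was -2.86. Naip5, P2rx7 and Nlrp6 were outside the rule for named genes and were chosen after their values were seen.

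The cytokines that caspase-1 matures did not pass. Il1b was at 21, 15 and 66 counts in controls and 57, 473 and 161 in knockouts, and control 3 overlapped the knockouts (log2 fold change 2.73, SE 0.89; edgeR, adjusted p 0.0724). Il18 had a log2 fold change of 0.47 (edgeR, adjusted p 0.486; SE 0.47). Of the 7 genes on this list 4 were tested and 0 called by edgeR, with 1 at an unadjusted p under 0.05. DESeq2's Wald test called 1, Il1b, which edgeR also called without knockout 1, and limma-voom called 0.

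Guanylate-binding proteins, interferon-induced GTPases that bring lipopolysaccharide to caspase-11, had 2 rises among 6 tested genes, and all 6 had positive log2 fold changes, of 0.40 to 1.66. DESeq2's Wald test and edgeR with library size alone each called 5 of them higher, edgeR without knockout 1 called 4, and limma-voom called 1. Gbp2 rose from between 14.3 and 17.8 CPM to between 31.9 and 60.0 CPM (log2 fold change 1.66, SE 0.26; edgeR, adjusted p 0.0277). Gbp4 rose as well, at a log2 fold change of 1.08 (edgeR, adjusted p 0.0422; SE 0.27).

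Of the death receptors, adaptors and necroptosis partners, 2 of 11 tested genes rose, against 10.6% of all genes tested. With library size alone edgeR called 4 higher, against 19.7% of all genes, and limma-voom called Traf2 alone. The 2 were the lipopolysaccharide receptor gene Tlr4 (log2 fold change 1.61, SE 0.40; edgeR, adjusted p 0.0414) and the adaptor gene Traf2 (0.81, SE 0.15; edgeR, adjusted p 0.0295). Fadd, which links death receptors to caspase-8, had a log2 fold change of -0.14 (edgeR, adjusted p 0.591; SE 0.17). Ppm1b, which encodes a phosphatase and was named after its values were seen, had a log2 fold change of -0.54 (edgeR, adjusted p 0.0551; SE 0.16), with all knockouts below all controls. It was called lower with DESeq2 size factors, by DESeq2's Wald test, with the newer quasi-likelihood version and without knockout 1. Tnf did not pass the filter on low counts, with 2, 2 and 8 counts in controls and 10, 38 and 64 in knockouts. It passed, only through the knockouts, when any 1 library was left out, and edgeR called it higher without knockout 1 alone.

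Among 10 genes that restrain caspase-8, RIPK1 or ZBP1, 3 rose. Birc3, a ubiquitin ligase of RIPK1, rose from between 12.1 and 14.8 CPM in controls to between 31.4 and 54.2 CPM in knockouts (log2 fold change 1.71, SE 0.23; edgeR, adjusted p 0.0271). The ubiquitin-editing enzyme gene Tnfaip3 had a log2 fold change of 1.71 (edgeR, adjusted p 0.0286; SE 0.29), and Adar, whose product edits the double-stranded RNA that ZBP1 can sense, one of 0.82 (edgeR, adjusted p 0.0297; SE 0.15). Cflar, which encodes the caspase-8 partner cFLIP, had one of -0.20 (edgeR, adjusted p 0.382; SE 0.16) and was not called. Of the 6 genes listed as apoptotic caspases only Casp12 rose, which lies in the cluster with Casp1 and Casp4, and the other 5 were not called.

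**Figure D3:**
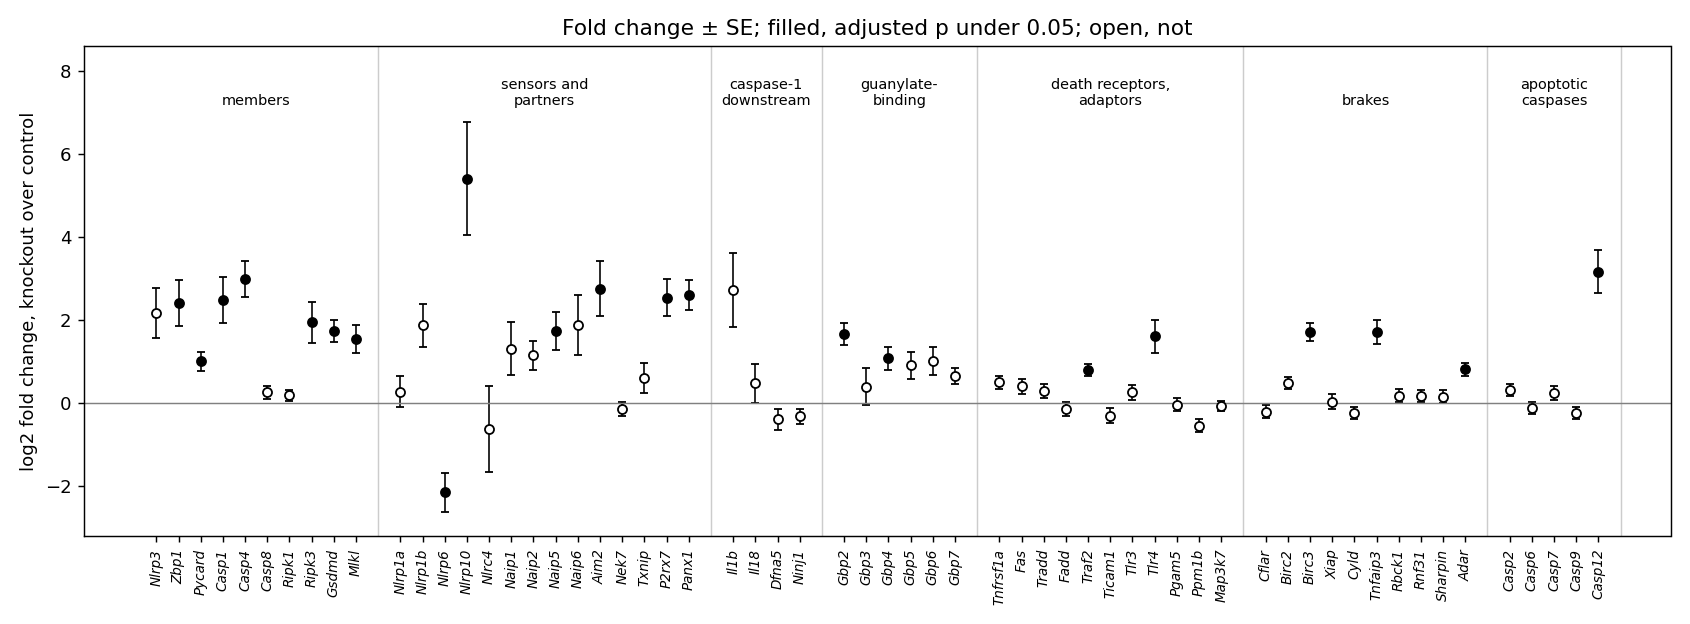
Log2 fold change of knockouts over controls with its SE (edgeR, 3 libraries per group) for the 10 members and 50 of the 51 tested companion genes, in blocks by list. Filled points have an adjusted p under 0.05, and are 7 of the members and 14 of the companions, of which Nlrp6 alone lies below 0.

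Most macrophage markers were called higher as well, and the other leukocyte lists were less clear. Of 9 macrophage markers 8 rose, all but Csf1r (log2 fold change 0.28, SE 0.37; edgeR, adjusted p 0.601). By DESeq2's Wald test the same 8 were called, and by limma-voom 6, without Adgre1 and Itgam. The summed level of the 9 macrophage markers was 169.5, 157.6 and 163.9 CPM in controls and 407.2, 1478 and 553.5 CPM in knockouts. It was thus highest in knockout 2 and lowest in knockout 1 among the knockouts, like 8 of the 10 members. The principal component of all genes had the same order of knockouts. The 6 T cell markers summed to between 4.03 and 6.90 CPM in controls and between 15.2 and 50.9 CPM in knockouts, with knockout 3 the lowest of these. Of them edgeR called 4 higher, limma-voom 2 and DESeq2 5. Cd3d and Cd3e had at most 14 counts in any control, and in the fit with at least 10 counts in every library 2 of the 6 were tested and 1 was called. Without any 1 control, without knockout 2 or without knockout 3, 0 were called by edgeR. Of 4 B cell markers 0 were called by edgeR and 3 had an unadjusted p under 0.05, with sums of 2.70 to 4.98 CPM in controls and 5.64 to 26.8 CPM in knockouts. DESeq2 called 2 of them, limma-voom 0, edgeR with library size alone 2 and edgeR without knockout 1, 3, all higher. For neutrophils, 0 of 4 tested markers were called by edgeR and by limma-voom, 1 was called by DESeq2, and 1 had an unadjusted p under 0.05 in edgeR. edgeR called 1 higher with library size alone (Csf3r) and 3 of the 4 without knockout 1 (Csf3r, S100a8 and S100a9). The sums were 7.21 to 13.3 CPM in controls and 9.52 to 34.0 CPM in knockouts, and the defining marker Ly6g held 0 to 2 counts in every library. Ly6g was at 0 in 3 libraries and Mpo in 1, and no marker of the 4 lists was at 0 in all. Without any 1 control, or without knockout 3, 0 macrophage markers were called by edgeR, and without knockout 2, 3 were. The part of leukocytes in the values of the members was not tested.

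Each member was also divided by the summed macrophage markers of its own library, as a log2 ratio. Knockouts did not lie wholly above controls for any of the 10 genes, whereas for 4 (Casp8, Ripk1, Pycard and Mlkl) they lay wholly below them, and for the other 6 the groups overlapped. The share over all genes was not computed for this ratio. Its denominator was 157.6 to 169.5 CPM in controls and 407.2 to 1478 CPM in knockouts. A gene whose level differs little between the groups, as with Casp8 and Ripk1, therefore falls in the ratio by construction. The mean log2 ratio of Casp4 was -5.99 ± 0.408 in controls and -5.18 ± 0.511 in knockouts (SD, n = 3 each). That of Zbp1 was -6.37 ± 0.903 and -5.94 ± 0.644, and that of Casp1 was -6.63 ± 0.304 and -6.44 ± 0.510. For Nlrp3 it was -7.74 ± 0.166 in controls and -7.93 ± 0.106 in knockouts, and all 6 libraries lay between -8.02 and -7.61. Pycard went from -3.49 ± 0.222 to -4.58 ± 0.729. The largest component of the denominator was Csf1r in all controls (94.0 to 117.3 CPM) and Lyz2 in all knockouts (197.7 to 906.1 CPM), so its make-up differed between the groups.

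**Figure D4:**
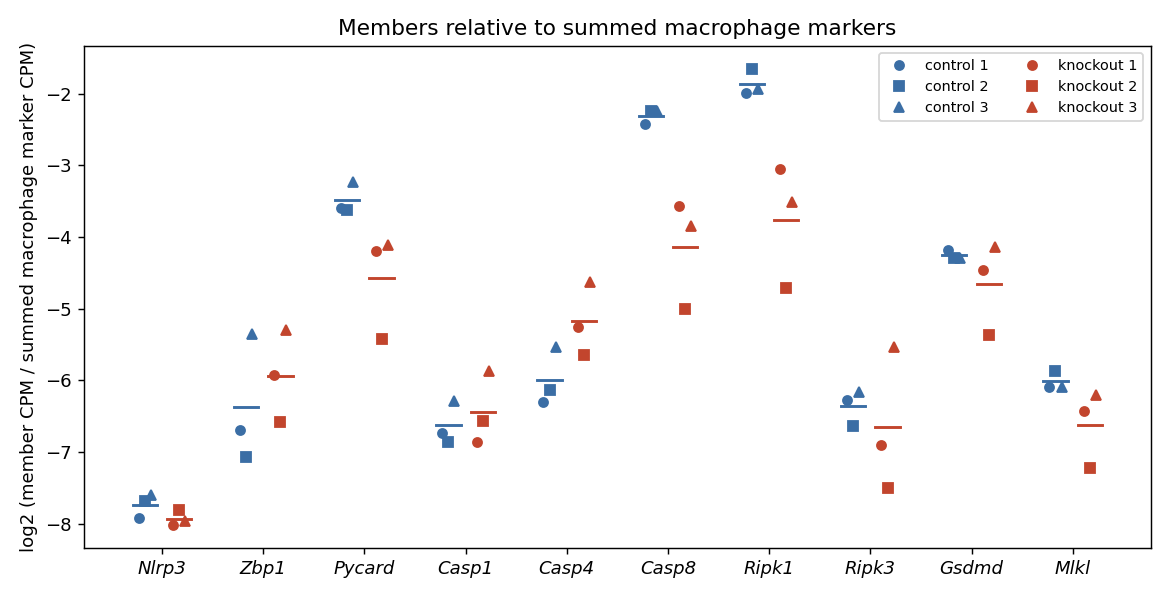
Log2 ratio of each member's CPM to the summed CPM of 9 macrophage markers in the same library, with controls in blue, knockouts in red and a line at the mean of 3 libraries. The groups overlap for 6 genes, and for Casp8, Ripk1, Pycard and Mlkl all knockouts lie below all controls. The summed markers were higher in all knockouts, so a gene of unchanged level lies lower in them.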

How the data were processed

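Poly-A RNA of 6 whole kidneys was sequenced (TruSeq libraries on an Illumina HiSeq). The authors deposited 1 table of raw gene counts for each group. Per the submitters' processing notes, the authors used CASAVA 1.8.2, Trimmomatic, TopHat2 2.0.11 and HTSeq with the mm9 genome. The annotation and strand setting of the counting were not given in the sources used here, so that overlapping genes are uncertain. Groups came from sample titles and genotype labels.

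The whole table was fitted with edgeR 4.0.16 in R 4.3.3 (filterByExpr with a minimum count of 10 and a minimum total of 15, TMM, glmQLFit and glmQLFTest, no covariate), with Benjamini-Hochberg adjustment. The standard error is the log2 fold change divided by the square root of F. P-values measure the spread among 3 mice per group, described as biological replicates. Replicates differed by far more than sampling noise, at chi-square values of at least 52.9 per degree of freedom. The fits were first run on simulated counts with a lower dispersion than was estimated here and with large changes only. That run checked the code and cannot tell how well the calls hold in these data.

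Alternatives were 2 other tools, limma-voom (limma 3.58.1) and the Wald test of DESeq2 1.42.0, which the study names; scaling by DESeq2 size factors or by library size alone; a filter of 10 counts in every library or none; leaving out each library; a replicate block and, chosen after seeing the data, edgeR's newer quasi-likelihood version. Members and lists were chosen with earlier results of these data known. Named companion genes are, per list, the 3 called genes with the largest log2 fold change in size (the 2 largest genes where none was called), with Il1b, Il18, Cflar, Fadd, Tnf and 1 gene that is not reported here always, and Tfrc and Cdh16 for the labels. Cdh16, which encodes Ksp-cadherin, was not called (log2 fold change -0.26, SE 0.29; edgeR, adjusted p 0.545). Gene positions and exon lengths are from GENCODE M1 on mm9, and promoter windows are from RefSeq on GRCm38.p6, so the 2 sets of coordinates cannot be compared.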

Additional observations from a re-analysis of the deposited data

How the results depend on the processing

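All 10 members kept a log2 fold change above 0 in all 14 alternatives. The number of members called was 7 with DESeq2 size factors, with no filter and with the newer quasi-likelihood version, 8 with at least 10 counts in every library and with DESeq2's Wald test, 9 with library size alone (where 19.7% of all genes tested were called higher) and 5 with limma-voom (7.33%), where Casp1 and Ripk3 were not called. It was 0 with the replicate block and from 0 to 8 when 1 library was left out. Of all genes, 2612 were called, 3647 with library size alone, 2030 by limma-voom, 4882 by DESeq2's Wald test, 0 with the replicate block (5432 at an unadjusted p under 0.05) and from 0 to 5332 when 1 library was left out. Of the companion genes 14 were called, and 22 with library size alone, 23 by DESeq2's Wald test, 8 by limma-voom, 0 with the replicate block and from 0 to 23 when 1 library was left out. The cause was not tested. Deviations from the group means correlated at -0.13, 0.01 and 0.21 between libraries of the same replicate number, and 1 of 3 controls and 1 of 3 knockouts correlated best with its own number, so these numbers were not taken as a pairing. With the block, the 7 called members had adjusted p of 0.0713 to 0.0847 (edgeR) and 8 members had an unadjusted p under 0.05. Library size alone moved the median of all genes to 0.29 on the log2 scale and the share of calls that were higher from 61.4% to 81.8%. Relative to that median, Casp8 was at 0.24 and Ripk1, which was called there (edgeR, adjusted p 0.0478), at 0.17. Nlrp3 had at most 14 counts in any control, the fewest of the members.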
